A study of Mus musculus with 4 samples.

Results

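The bHLH zipper network around Max was followed by 26 probe sets for 10 genes, out of 45037 probe sets and 18193 genes on the arrays. Its members were Myc, Mycn, Max, Mxd1, Mxd3, Mxd4, Mxi1, Mnt and Mlx, together with Pvt1, the long non-coding RNA gene next to Myc. Every probe set whose only annotated gene symbol was one of these 10 was taken. The cells were T29, a mouse thymic lymphoma line, and all samples came from this 1 line. In the first group the cells received the gamma-secretase inhibitor MRK003 (GSI, 2 arrays), and in the other DMSO, its solvent (2 arrays). The labels write the dose as 5 mM for 36 h, a unit that could not be checked. Their treatment text is identical for both groups, and the titles alone tell GSI from DMSO samples. Gamma-secretase releases the intracellular part of Notch receptors, which acts in the nucleus, so the comparison asks how transcripts of the network stand when that step is inhibited. Nothing in the labels says whether replicates were separate cultures, so p-values cover no more than the spread of these arrays, which could be technical only.

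Myc and its relative N-Myc, encoded by Mycn, are transcription factors that promote growth and bind DNA only as dimers with Max. The dimers recognise the E-box CACGTG. The Mxd proteins (Mxd1, Mxd3, Mxd4 and Mxi1) and Mnt also dimerise with Max, recruit the Sin3 corepressor complex and repress genes with the same site, and several Mxd genes are expressed as cells leave the cycle. Mlx resembles Max and partners MondoA, ChREBP, Mnt and some Mxd proteins. In T cell leukaemia Myc is known as a direct target of Notch1.

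The promoters of network genes are shown first, because the network's own binding site lies in several of them. Windows of 300 bases, from 250 bases before to 50 bases after the start site, were taken from RefSeq (GRCm38.p6) for 8 of the 10 genes, 10 windows in all, with 3 start sites for Mxi1. Windows of Myc and Pvt1 were not used here. The E-box CACGTG, which reads the same on both strands, lay in 4 of the 10 windows (those of Mxd4, Max, Mnt and Mlx), and in 7.15% of all 32841 windows searched. The core motif of RBPJ, the DNA-binding partner of Notch, TGGGAA on either strand, lay in 3 of the 10 windows (that of Mxd3 and 2 of Mxi1) and in 25.6% of all windows. The 2 motifs overlapped in none of these windows. These matches are descriptions of sequence, not evidence of binding. The 4 windows with an E-box are printed 5′ to 3′ in the direction of the gene, with the E-box in capitals.
Mxd4, chr5:34187661-34187960, minus strand: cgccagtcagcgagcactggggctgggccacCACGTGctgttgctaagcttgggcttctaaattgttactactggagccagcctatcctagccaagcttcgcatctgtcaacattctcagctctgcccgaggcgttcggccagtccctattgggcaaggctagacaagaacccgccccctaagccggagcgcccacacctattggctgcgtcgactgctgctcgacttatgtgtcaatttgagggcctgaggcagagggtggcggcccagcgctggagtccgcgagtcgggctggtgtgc
Max, chr12:76962199-76962498, minus strand: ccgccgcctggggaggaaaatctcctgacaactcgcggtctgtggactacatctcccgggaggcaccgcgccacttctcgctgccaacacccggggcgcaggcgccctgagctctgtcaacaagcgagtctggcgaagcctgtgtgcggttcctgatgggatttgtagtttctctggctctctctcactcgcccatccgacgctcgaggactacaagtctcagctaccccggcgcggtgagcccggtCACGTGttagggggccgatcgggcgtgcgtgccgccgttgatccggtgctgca
Mnt, chr11:74830674-74830973, plus strand: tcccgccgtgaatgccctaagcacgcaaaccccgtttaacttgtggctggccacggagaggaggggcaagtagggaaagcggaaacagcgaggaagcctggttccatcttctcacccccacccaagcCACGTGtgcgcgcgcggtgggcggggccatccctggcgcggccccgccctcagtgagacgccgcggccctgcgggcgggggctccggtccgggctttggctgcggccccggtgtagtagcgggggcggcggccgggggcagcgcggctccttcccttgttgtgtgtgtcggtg
Mlx, chr11:101087040-101087339, plus strand: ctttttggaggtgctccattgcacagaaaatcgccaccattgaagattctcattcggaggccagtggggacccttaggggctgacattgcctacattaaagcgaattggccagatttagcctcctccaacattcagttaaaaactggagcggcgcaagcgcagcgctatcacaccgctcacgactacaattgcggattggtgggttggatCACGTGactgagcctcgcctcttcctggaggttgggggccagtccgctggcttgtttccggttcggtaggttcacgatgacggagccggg
Counted from the start site, the E-box began at base -219 in Mxd4, -3 in Max, -123 in Mnt and -40 in Mlx. Of these 4 genes Mxd4 was higher with GSI, and the other 3 did not pass the test described below.

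Expression was given as log2 RMA values, 1 per probe set and array, and a difference of 1 is a 2-fold change. Each gene was read from its brightest probe set (by the mean of the 4 arrays), and GSI was compared with DMSO by limma fitted across the 18193 genes. A gene counts as called where its Benjamini-Hochberg adjusted p lay below 0.05. Over all probe sets the arrays correlated at 0.9970 within GSI, 0.9959 within DMSO and 0.9915 to 0.9940 between groups. The median log2 difference of all genes was -0.01. Of 9 measured T lineage markers 8 had a mean between 9.49 and 12.51 with GSI and between 9.61 and 12.64 with DMSO, among them Cd3e and Bcl11b, and the ninth, Cd2, was dim, at 3.78 with GSI and 4.57 with DMSO. Thy1 rose by 0.53 and Cd3g fell by 0.47 (limma, adjusted p = 0.0409 each). Of 21 markers of B cells, myeloid cells, erythroid cells and stroma, the 5 B cell markers stayed between 3.41 and 4.99 with GSI and between 3.43 and 4.97 with DMSO. The medians of the other 3 lists lay between 4.51 and 4.76 with GSI and between 4.44 and 4.53 with DMSO. The brightest erythroid marker, Epor, was at 6.91 with GSI and 7.11 with DMSO. Cd14, the brightest myeloid one, was at 6.09 with GSI and 6.31 with DMSO. The 1 marker called among these 21 was Pdgfrb, at 7.40 with GSI and 8.69 with DMSO. Next by p was the myeloid marker Itgam, whose mean was 4.31 with GSI and 3.27 with DMSO, with separate groups (log2 difference 1.05; limma, adjusted p = 0.0561). Both means were dim, below 4.88, the median of all values. The other myeloid markers had log2 differences between -0.22 and 0.20. The stromal marker Pdgfra was at 4.47 with GSI and 3.92 with DMSO (0.55; adjusted p = 0.104). Apart from Pdgfrb, the other markers of its list had log2 differences between -0.06 and 0.06. What part any of these markers has in the results below was not tested.

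With GSI, 3 of the 10 network genes were called, against 4.12% of all genes. Mxd4 rose 2.73-fold, where 2.56% of all genes were called higher. Pvt1 fell 2.09-fold and Myc fell 1.54-fold, where 1.56% of all genes were called lower. Max and Mxd1 stood apart by smaller differences that did not pass, and Mycn, Mxd3, Mxi1, Mnt and Mlx had log2 differences between -0.19 and 0.04. In 2 of the 10 genes both GSI arrays lay above both DMSO arrays, against 23.7% of all genes, and in 5 they lay below, against 27.7%. These 7 of 10 without overlap stand beside 51.4% of all genes. In these bulk samples, fewer cells expressing a gene and less of its RNA per cell cannot be told apart.

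**Figure D1:**
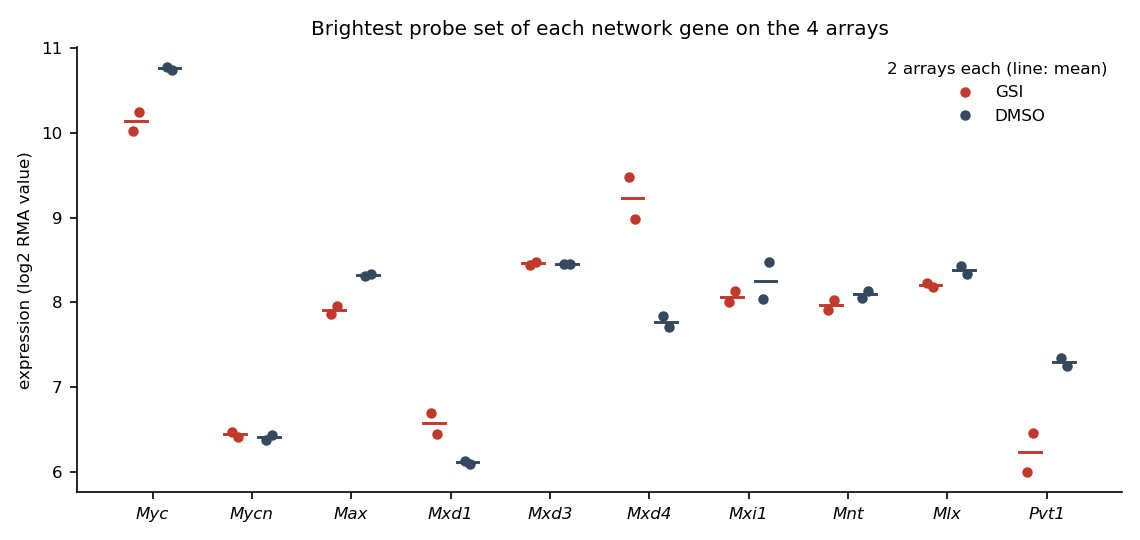
Log2 RMA value of the brightest probe set of each of the 10 network genes, with 1 point per array (2 GSI arrays, left, and 2 DMSO arrays, right) and a line at each group's mean. Both GSI arrays lie below both DMSO arrays for Myc, Max, Mnt, Mlx and Pvt1 and above them for Mxd1 and Mxd4. Levels of different probe sets are not comparable with each other.

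Mxd4, encoding the Max partner Mad4, was the largest mover of the network. Its brightest probe set read 9.472 and 8.979 on the GSI arrays, against 7.841 and 7.708 on the DMSO arrays. Both GSI arrays thus lay well above both DMSO arrays. The means were 9.23 ± 0.35 with GSI and 7.77 ± 0.09 with DMSO (SD, n = 2 each; log2 difference 1.45, SE 0.17; limma, adjusted p = 0.0148). By the absolute size of its difference Mxd4 ranked 63rd of the 18193 genes. The GSI arrays differed from each other by more than the DMSO arrays did. Leaving out 1 array at a time, the difference ranged from 1.20 without GSI replicate 1 to 1.70 without GSI replicate 2, and was 1.52 without DMSO replicate 1 and 1.38 without DMSO replicate 2. Each of these fits, with 1 array in a group, lost the call, along with nearly all calls over all genes.

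The other probe sets of Mxd4 gave separate readings of the same gene, and each was tested among all 45037 probe sets, of which 0.948% were called higher, 0.446% lower and 1.39% in either direction. Probe set 1434379_at read 8.023 and 7.771 with GSI, against 6.753 and 6.749 with DMSO (log2 difference 1.15; adjusted p = 0.0178). Probe set 1422574_at read 7.201 and 7.145 with GSI, against 6.206 and 5.969 with DMSO (1.09; adjusted p = 0.0189). With the brightest, 1434378_a_at (adjusted p = 0.0254 in this fit), 3 of the 4 Mxd4 probe sets were called higher, each more than 2-fold. The fourth, 1422575_at, was dim, at 4.668 and 4.272 with GSI and 4.099 and 4.420 with DMSO, below the median of all values, 4.88, and its groups overlapped (0.21; adjusted p = 0.624). Its difference was smaller than that of the brightest probe set by 1.24 (SE 0.17), which did not pass when all 16752 such pairs of probe sets of 1 gene were tested (limma, adjusted p = 0.0758).

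Myc, the central activator of the network, was represented by a single probe set, 1424942_a_at. It read 10.022 and 10.247 on the GSI arrays, against 10.771 and 10.743 on the DMSO arrays. The DMSO arrays nearly coincided, and both GSI arrays lay below them. The means were 10.13 ± 0.16 with GSI and 10.76 ± 0.02 with DMSO (SD, n = 2 each; log2 difference -0.62, SE 0.11; limma, adjusted p = 0.0390). The 95% interval of the fit ran from -0.88 to -0.36. Myc ranked 258th among the 18193 genes in the order of falls. The call was lost when the same values were tested among all probe sets (limma, adjusted p = 0.0719). It was also lost in each fit that left out 1 array, along with nearly all calls over all genes. In those 4 fits the difference was -0.51 without GSI replicate 1, -0.73 without GSI replicate 2, -0.61 without DMSO replicate 1 and -0.64 without DMSO replicate 2.

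Pvt1, whose RNA is transcribed beside Myc, had a larger log2 difference than Myc in 3 of its 5 probe sets, a contrast between the genes that was not tested. Its brightest probe set, 1452324_at, read 5.999 and 6.466 with GSI, against 7.346 and 7.248 with DMSO. Both GSI arrays lay clearly below both DMSO arrays. The log2 difference was -1.06 (SE 0.16; limma over genes, adjusted p = 0.0306), the 68th largest fall among all genes, and among all probe sets the same values did not pass (adjusted p = 0.0530). The next probe set, 1427140_at, read 4.055 and 4.757 with GSI, against 5.584 and 5.395 with DMSO, with a difference of -1.08 (adjusted p = 0.102). Probe set 1431352_s_at read 4.068 and 4.025 with GSI, against 5.155 and 5.020 with DMSO. It was the 1 Pvt1 probe set called lower among all probe sets (-1.04; limma, adjusted p = 0.0157). Its mean over the 4 arrays, 4.57, lay below the median of all values, while those of 1452324_at and 1427140_at lay above. These 3 probe sets therefore gave nearly the same difference, from -1.08 to -1.04. The remaining 2, 1450541_at (-0.29; adjusted p = 0.293) and 1431351_at (-0.21; adjusted p = 0.391), were dimmer still, with every reading at 3.718 or lower. GSI lay below DMSO on both arrays in all 5 Pvt1 probe sets, which was so for 25.2% of all probe sets. These 5 read 1 gene on the same arrays, so they are not independent of each other. The gene-level difference was -0.83 without GSI replicate 1, -1.30 without GSI replicate 2, -1.02 without DMSO replicate 1 and -1.11 without DMSO replicate 2. The call was lost each time, along with nearly all calls over all genes.

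**Figure D2:**
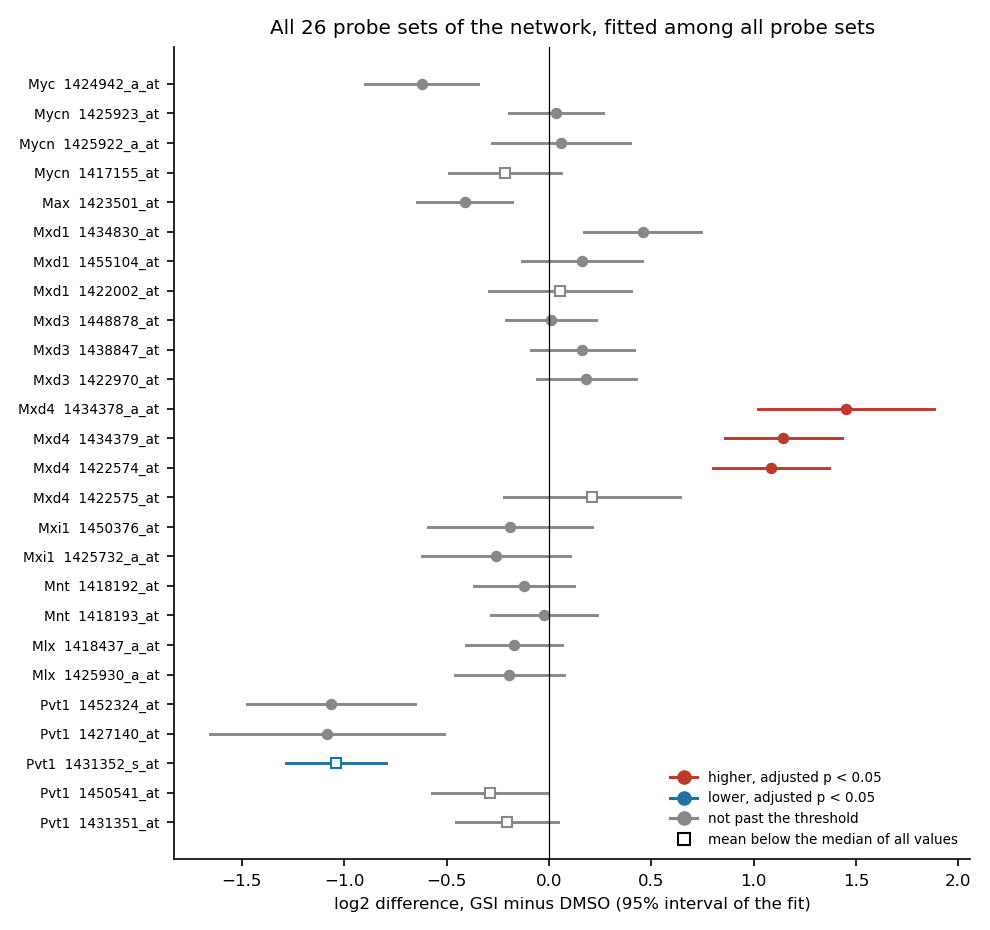
Log2 difference, GSI minus DMSO, of the 26 network probe sets (rows, with gene and probe set), as a point with the 95% interval of the limma fit over all probe sets. Red and blue points passed an adjusted p under 0.05, and open squares mark probe sets whose mean lies below 4.88, the median of all values. The 3 brighter Mxd4 probe sets lie above 1, and 3 of the 5 Pvt1 probe sets lie near -1.

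The genes around Myc on chromosome 15 were measured alongside it. Of 10 measured protein-coding neighbours, 5 on each side in the RefSeq order of GRCm38.p6, 0 were called by limma, against 4.12% of all genes. Before adjustment 1 was lower at p under 0.05, against 10.7% of all genes, so neither count stands apart from the background. The gene was Trib1, encoding a pseudokinase, at 5.450 and 5.203 with GSI and 5.709 and 5.554 with DMSO (log2 difference -0.30; adjusted p = 0.215). Lratd2, the nearest on its side, differed by -0.33 with overlapping groups (95% interval from -0.74 to 0.08, which holds the difference of Myc; adjusted p = 0.326), and Gsdmc2, the nearest on the other side, was at 2.602 and 2.622 with GSI and 2.863 and 2.657 with DMSO (adjusted p = 0.469). Further out, Washc5, Nsmce2, 4933412E24Rik, Cyrib, Asap1, Adcy8 and Efr3a had log2 differences between -0.09 and 0.18. Gsdmc2, Adcy8 (mean 2.88 with GSI and 2.70 with DMSO) and 4933412E24Rik (4.29 and 4.36) lay below the median of all values, 4.88. A fall could be hidden at such levels. Whether the differences of Myc and Pvt1 exceed those of their neighbours was not tested.

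**Figure D3:**
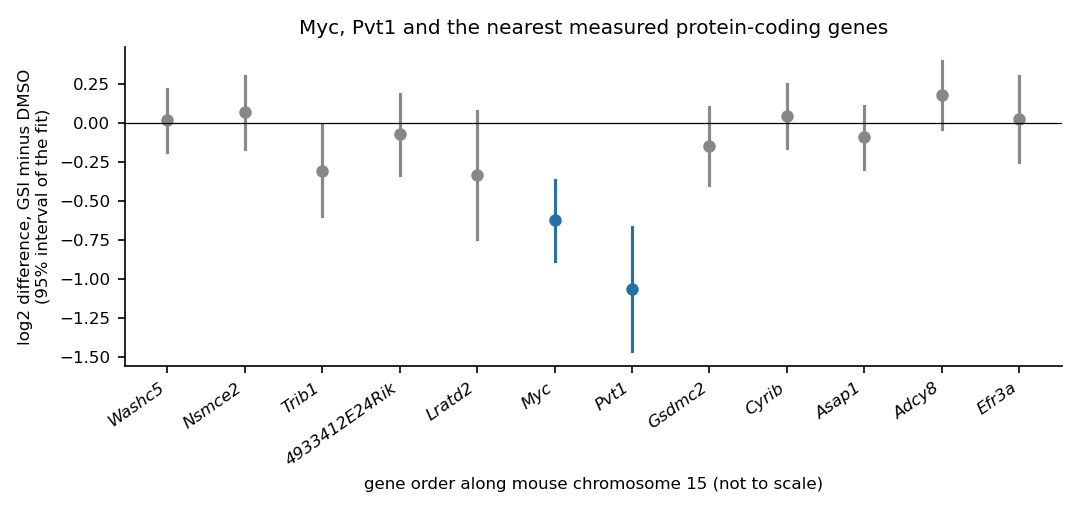
Log2 difference, GSI minus DMSO, of Myc, Pvt1 and the 5 nearest measured protein-coding genes on each side, in gene order along chromosome 15, with the 95% interval of the limma fit over genes. Myc (-0.62) and Pvt1 (-1.06), in blue, passed an adjusted p under 0.05, and the 10 neighbours, in grey, did not.

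Max, the shared dimer partner, was measured by 1 probe set, 1423501_at. It read 7.858 and 7.959 on the GSI arrays, against 8.309 and 8.329 on the DMSO arrays, so the groups were separate. The log2 difference of -0.41 (SE 0.09) did not pass over genes (limma, adjusted p = 0.0626). Under 4 other settings it did, namely a trend and robust prior (adjusted p = 0.0176), the removal of dim genes (0.0186), genes taken as means of their probe sets (0.0457) and arrays centred on their medians (0.0486). Over all genes tested, calls of lower went from 284 to 899, 829, 379 and 479 under these settings, in the same order. Max did not pass with cyclic loess (limma, adjusted p = 0.0523) or a replicate block (0.130). With 1 array left out its difference ranged from -0.46 to -0.36.

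Mycn, encoding the second Myc protein measured, showed no difference that passed the test in any of 3 probe sets. The brightest, 1425923_at, read 6.476 and 6.410 with GSI, against 6.376 and 6.441 with DMSO, and the groups overlapped. Its log2 difference was 0.04, with a 95% interval from -0.18 to 0.25 (limma, adjusted p = 0.867). The dimmer 1425922_a_at and 1417155_at differed by 0.06 and -0.21 in the fit over probe sets (limma, adjusted p = 0.885 and 0.412). In 1417155_at both GSI arrays, at 4.448 and 4.364, lay below both DMSO arrays, at 4.723 and 4.518.

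Among the other Max partners that repress, Mxd1, encoding Mad1, was nearest to the threshold. Its brightest probe set, 1434830_at, read 6.700 and 6.448 with GSI, against 6.134 and 6.099 with DMSO. The groups did not overlap, and the log2 difference of 0.46 (SE 0.11) did not pass (limma over genes, adjusted p = 0.0851). It did pass under a trend and robust prior (adjusted p = 0.0453) and once dim genes were removed (0.0298). Calls of higher over all genes tested went from 466 to 1042 and 1009 there. Mxd1 did not pass with cyclic loess (limma, adjusted p = 0.0698), centred arrays (0.0734) or a replicate block (0.134). As the mean of its 3 probe sets the difference was 0.22 (adjusted p = 0.213), since 1455104_at and 1422002_at differed by only 0.16 and 0.05.

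Mxd3, a family member known to be expressed in proliferating cells, had its brightest probe set, 1448878_at, at 8.445 and 8.476 with GSI and 8.449 and 8.451 with DMSO. All 4 arrays thus gave nearly the same reading. The log2 difference was 0.01, with a 95% interval from -0.19 to 0.21 (limma, adjusted p = 0.963). The dimmer 1438847_at and 1422970_at differed by 0.16 and 0.18 and did not pass over probe sets (adjusted p = 0.498 and 0.433). Whether the response of Mxd4 differs from that of Mxd1 or Mxd3 was not tested.

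Mxi1, another repressor of the Mxd family, read 8.001 and 8.130 with GSI, against 8.034 and 8.476 with DMSO in probe set 1450376_at. The groups overlapped, and the DMSO arrays lay farther from each other than the GSI arrays. The log2 difference was -0.19, with a 95% interval from -0.58 to 0.20 (limma, adjusted p = 0.559), and without DMSO replicate 2 it was 0.03. The second probe set, 1425732_a_at, differed by -0.26 (adjusted p = 0.456 over probe sets).

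Mnt, a broadly expressed repressor that competes with Myc for Max, read 7.913 and 8.033 with GSI, against 8.052 and 8.136 with DMSO in probe set 1418192_at. The groups did not overlap, but the gap between them was smaller than the gap between arrays within either group. The log2 difference was -0.12, with a 95% interval from -0.35 to 0.11 (limma, adjusted p = 0.518), and -0.02 for the dimmer 1418193_at. Mlx, the Max-like partner of MondoA, read 8.232 and 8.187 with GSI, against 8.432 and 8.332 with DMSO in probe set 1418437_a_at. Both of its probe sets were lower on both GSI arrays, by 0.17 in 1418437_a_at, with a 95% interval from -0.39 to 0.04 (limma over genes, adjusted p = 0.328), and by 0.19 in 1425930_a_at (adjusted p = 0.448 over probe sets).

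**Figure D4:**
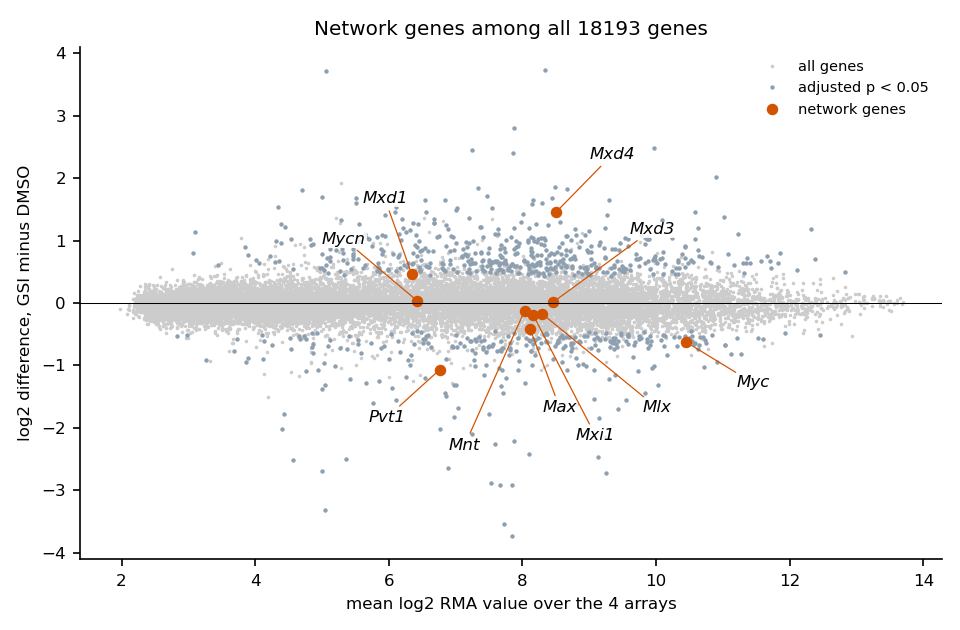
Log2 difference, GSI minus DMSO, against the mean log2 RMA value over the 4 arrays, for all 18193 genes (grey), the 750 called genes (blue-grey) and the 10 network genes (orange, named). Mxd4 lies at 1.45, Pvt1 at -1.06 and Myc at -0.62, and the 5 genes that differed least, Mycn, Mxd3, Mxi1, Mnt and Mlx, lie between -0.19 and 0.04.

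Across the network, probe sets of 1 gene were set against each other. Of 16 pairs formed by the brightest and each other probe set of a gene, 0 were called unequal by limma, against 0.227% of all such pairs. At an unadjusted p under 0.05, 4 were unequal, a count for which the share over all pairs was not computed. Of the 26 probe sets 20 had a mean above the median of all values. Called probe sets numbered 3 higher, all of Mxd4, and 1 lower, of Pvt1. In 19 of the 26 the groups did not overlap, against 46.4% of all probe sets. Probe sets of 1 gene are not independent of each other, so this count is not one of separate genes. In the 3 called genes GSI replicate 1 lay farther from the DMSO mean than GSI replicate 2, which was so for 540 of the 750 called genes (72.0%).

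Among other factors that bind the E-box or extend the network, 0 of 11 measured were called by limma, against 4.12% of all genes, and 0 passed p under 0.05 before adjustment, against 10.8% higher and 10.7% lower. They had log2 differences between -0.10 and 0.16 and a median of 0.06. Those with the smallest p were Tfeb, a regulator of lysosomal genes (0.16; adjusted p = 0.377), and Tfec (0.11; adjusted p = 0.504). Tfec, Mlxipl, Mycs and Mycl were dim, with means below 4.88, the median of all values, in both groups. A change could be hidden at such levels. Mga, a further Max partner, averaged 8.79 with GSI and 8.78 with DMSO (adjusted p = 0.986). Mlxip, encoding MondoA, averaged 6.89 with GSI and 6.98 with DMSO (adjusted p = 0.791).

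The cofactors through which the dimers act gave counts to be read against the 4.12% of all genes called, and against the 10.8% higher and 10.7% lower at p under 0.05 before adjustment. Of 13 coactivators and elongation partners of Myc 1 fell, Ruvbl2, encoding an ATPase that Myc binds, at 10.330 and 10.304 with GSI and 10.996 and 10.968 with DMSO (log2 difference -0.67; limma, adjusted p = 0.0167). Its partner Ruvbl1 and the acetyltransferase gene Kat2a differed by -0.35 and -0.37 and did not pass (adjusted p = 0.102 each). The median of the 13 was 0.04. Their falls numbered 3 once dim genes were removed or under a trend and robust prior, and 0 with a replicate block or a 2-fold minimum. Over all genes tested, falls went from 284 to 829 once dim genes were removed and to 899 with that prior. They went to 70 with a replicate block and to 66 with a 2-fold minimum. Of 13 subunits and partners of the Sin3 complex, used by Mxd and Mnt, 0 were called by limma, and before adjustment 1 was higher and 2 were lower at p under 0.05, with a median of 0.05. Arid4a differed by 0.35 (adjusted p = 0.157) and Sap30 by -0.31 (adjusted p = 0.203). Of 12 genes that set the stability of Myc protein 1 fell, Usp36, encoding a nucleolar deubiquitinase, at 7.768 and 7.861 with GSI and 8.378 and 8.460 with DMSO (-0.60; adjusted p = 0.0290). As the mean of its probe sets Usp36 did not pass (-0.33; adjusted p = 0.115), and this list counted 2 falls under a trend and robust prior and 0 with a replicate block or a 2-fold minimum. Leaving out 1 array lost the calls of Ruvbl2 and Usp36 each time, along with nearly all calls over all genes. The difference then ranged from -0.68 to -0.65 for Ruvbl2 and from -0.65 to -0.56 for Usp36. Neither gene fell 2-fold, so neither could pass a 2-fold minimum.

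Genes known from other work as induced by Myc mostly had lower values. Of 31 measured, 29 had a lower mean with GSI, against 53.0% of all genes, and 7 fell and 0 rose past the threshold, against 1.56% of all genes called lower. At an unadjusted p under 0.05 there were 22 lower and 0 higher, where 10.7% of all genes were lower. Their median log2 difference was -0.37, against -0.01 for all genes. The largest falls were those of Srm, encoding spermidine synthase (-0.94; limma, adjusted p = 0.0114), Polr1b, encoding a subunit of RNA polymerase I (-0.84; 0.0295), Nolc1, a nucleolar gene (-0.74; 0.0352), and Cad, which starts pyrimidine synthesis (-0.71; 0.0148). Cad read 8.949 and 8.970 with GSI, against 9.693 and 9.637 with DMSO. The 2 members with a higher mean, neither of which passed, were Ccnd2 (0.14) and Tert (0.12), named after their values were seen, and Cdk4, likewise, differed by -0.01. No call of the list remained with any 1 array left out, but nearly all calls over all genes were lost there too. In those fits the difference ranged from -1.03 to -0.86 for Srm and from -0.98 to -0.69 for Polr1b. It ranged from -0.88 to -0.59 for Nolc1 and from -0.73 to -0.68 for Cad. The list counted 16 falls once dim genes were removed, 17 with a trend and robust prior and 0 with a replicate block or a 2-fold minimum. Over all genes tested, calls of lower went from 284 to 829 once dim genes were removed and to 899 with that prior. They went to 70 with the block and to 66 with the 2-fold minimum. No member could pass that minimum, since the largest fall was -0.94. Earlier results of these data were known when the list was drawn up, so its direction is not independent evidence.

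Of 14 genes known as repressed by Myc 1 rose, Cdkn1a, encoding the cell cycle inhibitor p21, at 10.321 and 10.303 with GSI and 9.123 and 9.147 with DMSO (log2 difference 1.18; limma, adjusted p = 0.00411). Of all genes 2.56% were called higher. Leaving out 1 array lost this call each time, along with nearly all calls over all genes. The difference then ranged from 1.16 to 1.19. The list's median was 0.12. A higher mean with GSI was seen in 10 members and a lower one in 4, against 53.0% of all genes with a lower mean. The lowest, Ndrg1, differed by -0.46 with overlapping groups (limma, adjusted p = 0.516) and was named after its values were seen. At p under 0.05 before adjustment 3 members were higher and 0 lower, where 10.8% of all genes were higher and 10.7% lower. The list counted 3 rises with genes taken as means of their probe sets. It counted 2 once dim genes were removed, under a trend and robust prior, with centred arrays, with cyclic loess and with a replicate block. Over all genes tested, rises went from 466 to 512, 1009, 1042, 543, 566 and 147 under these settings, in the same order. The other 2 of the 3 higher before adjustment were Gadd45a (1.34; limma, adjusted p = 0.0544) and Ccng2 (0.98; adjusted p = 0.123). Both were named after their values were seen, and their arrays spread widely within a group. Ccng2 read 10.285 and 10.209 with GSI, against 8.805 and 9.725 with DMSO. Of 3 targets of MondoA with Mlx 0 were called by limma and 2 were higher at p under 0.05 before adjustment, against the same 10.8%, Klf10 (0.52; adjusted p = 0.114) and Arrdc4 (0.31; adjusted p = 0.134), of which Arrdc4 was dim. The glucose-responsive gene Txnip, the third, averaged 7.62 with GSI and 7.53 with DMSO (adjusted p = 0.835).

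**Figure D5:**
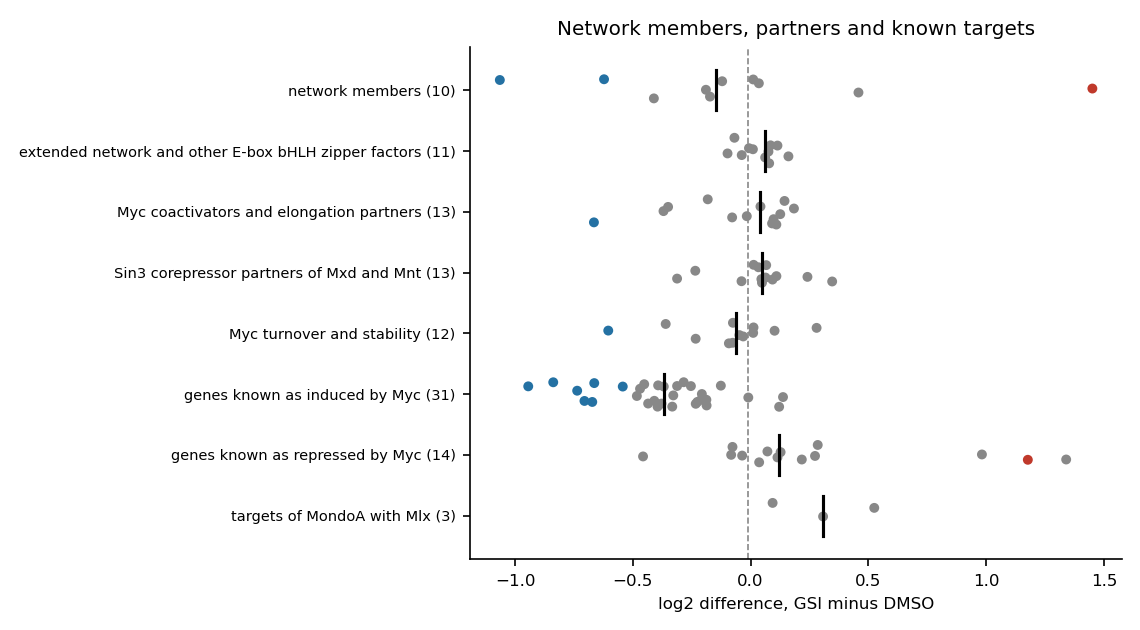
Log2 difference, GSI minus DMSO, of each measured gene (points) in the network and in 7 lists of partners and known targets (rows, number of genes in brackets). Red points rose and blue points fell at an adjusted p under 0.05, black bars are list medians, and the dashed line is the median of all genes, -0.01. The genes known as induced by Myc lie mostly left of 0, with a median of -0.37.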

How the data were processed

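Total RNA of T29 cells was measured on 4 Affymetrix arrays, 2 with GSI and 2 with DMSO. The authors deposited log2 expression values made with RMA, per the submitters' processing notes; the version is not given in the sources used here. RMA corrects background, normalizes between arrays and summarises each probe set, so a shift of all transcripts together would not be seen, and differences of dim probe sets are compressed. Of 45037 non-control probe sets, 34945 had 1 gene symbol, updated through the gene identifier to RefSeq (GRCm38.p6). The precision is limited by the number of arrays.

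Groups were compared with limma (version 3.58.1, under R 4.3.3; lmFit, then eBayes, two-sided, with group as the only term), once over 18193 genes (the brightest probe set per gene) and once over all 45037 probe sets, with Benjamini-Hochberg adjustment. The prior gave 3.80 of the 5.80 degrees of freedom of the gene fit. SD is over the 2 arrays of a group, and SE is that of the fit. All probe sets of the members were named, with up to 4 called genes of each partner or target list (otherwise the 2 with the smallest p) and 5 measured neighbours of Myc on each side. List members with no probe set annotated to them alone were left out. The members and lists were chosen with earlier results of these data known. The test of unequal change between probe sets was added after the values were seen. The limma step was tested on simulated data. Alternatives were probe set means, dim features left out, a trend and robust prior, centred arrays, cyclic loess, a 2-fold minimum, a replicate block and the omission of each array in turn.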

Additional observations from a re-analysis of the deposited data

How the results depend on the processing

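Over all genes, 466 were called higher and 284 lower. These counts became 1009 and 829 with dim genes left out, 1042 and 899 with a trend and robust prior, 147 and 70 with a replicate block, and 111 and 66 with a 2-fold minimum, and 479 were lower with centred arrays. With 1 array left out they ranged from 0 to 1 higher and from 0 to 5 lower. Over probe sets, 427 higher and 201 lower became 969 and 587 with dim ones left out, 1338 and 1034 with the trend and robust prior, 37 and 28 with the replicate block, and 202 and 108 with the 2-fold minimum, and 0 of each with any 1 array left out.

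Of the network genes, 1 was higher and 2 lower. There were 2 higher with dim genes left out and with the trend and robust prior (Mxd1 added). Lower numbered 3 under these 2 settings, with probe set means and with centred arrays (Max added). There was 1 lower with the 2-fold minimum (Pvt1) and 0 with the replicate block (adjusted p = 0.102 for Myc and 0.0881 for Pvt1, while Mxd4 passed at 0.0393). With 1 array left out 0 were called in either direction. Of the network probe sets 3 were higher, and 0 with the replicate block or with any 1 array left out. Lower was 1, 1431352_s_at of Pvt1. It is itself dim and dropped out where dim ones were left out, with 2 others called there (1424942_a_at of Myc at 0.0365 and 1452324_at of Pvt1 at 0.0316). There were 2 lower with centred arrays and with cyclic loess, 5 with the trend and robust prior, and 0 with the replicate block or with any 1 array left out. The replicate numbers were not shown to pair the samples, since deviations of same-numbered arrays correlated at 0.0695 over all probe sets, so the block only records how the counts move.

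Of 611 values of single named genes and probe sets under alternatives, 501 kept their direction and side of the threshold, 76 lost the call, 16 gained it and 18 changed sign, 0 of these among called ones. As genes, Mycn was -0.0397 and Cyrib -0.0324 as probe set means, Mxd3 -0.0181 and Washc5 -0.0111 with centred arrays, and Efr3a -0.0101 as a probe set mean and -0.0045 with centred arrays. Signs also turned with 1 array left out, where the difference ranged from -0.0041 to 0.0264 for Mxd3 (gene and probe set 1448878_at, lowest without GSI replicate 2) and from -0.411 to 0.0315 for Mxi1 (gene and probe set 1450376_at, highest without DMSO replicate 2). It ranged from -0.107 to 0.226 for 1425922_a_at of Mycn, from -0.107 to 0.216 for 1422002_at of Mxd1, from -0.0951 to 0.0503 for 1418193_at of Mnt, from -0.178 to 0.0335 for 4933412E24Rik and from -0.0900 to 0.140 for Efr3a. The cause was not tested.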
